A study of Rattus norvegicus with 120 samples.

Results

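Kidneys of rats given rapamycin (Rapa) at 10 mg/kg on 7 consecutive days (4 rats, 1 array each) were compared with kidneys of rats given 7 daily doses of olive oil, the vehicle (4 rats, 1 array each). These 8 arrays, chosen by their labels alone, are part of a series of 120 Affymetrix Rat 230 2.0 arrays in 28 groups of rats. The title of the series names the early detection of kidney damage by calcineurin inhibitors as its purpose, and Rapa is one of its 3 drugs. All rats were male Sprague-Dawley animals of 5 to 7 weeks at the start, with no genetic alteration named. Dosing was intraperitoneal, and necropsy followed 24 hours after the final dose. The labels do not say what the drug was dissolved in. Other groups used here were Rapa 1 mg/kg, tacrolimus (FK506) 6 mg/kg and cyclosporine (CsA) 25 mg/kg after 7 doses (4 rats each), and Rapa 10 mg/kg and vehicle after 1, 14 and 28 doses (4 rats each at days 1 and 14, and 6 Rapa and 5 vehicle rats at day 28). RNA came from the pieces of both kidneys that histology had not used, and the labels do not separate cortex from medulla. Defining kidney genes were bright in all 8 arrays: the log2 level of Umod, the main urinary protein of the thick ascending limb, was between 13.69 and 13.86, and that of Slc34a1, the phosphate transporter of the proximal tubule, between 13.58 and 13.84.

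Rapamycin binds the immunophilin FKBP12 (gene Fkbp1a), and the complex inhibits mTORC1, a kinase complex that couples amino acids, insulin and growth factors to cell growth. Active mTORC1 phosphorylates S6 kinases and 4E-BP proteins, which promotes translation of ribosomal protein mRNAs and entry into the cell cycle. It also promotes sterol and fatty acid synthesis through SREBP transcription factors and restrains autophagy and lysosome formation. In mouse plasmacytoid dendritic cells mTOR is needed for the interferon response through IRF7. FK506 binds the same FKBP12 but inhibits the phosphatase calcineurin, as CsA does through cyclophilin.

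Interferon-stimulated and cell cycle genes had the lowest median changes of the 46 gene lists examined (-0.71 and -0.63 on the log2 scale), and the promoters of 3 members of each are shown for that reason. The windows run from 250 bases before to 50 bases after the annotated start (RefSeq, GRCr8), 5' to 3' on the gene's strand. In the interferon group, capitals mark, on either strand, a pair of GAAA repeats with any 2 bases between them, the core of the element that interferon regulatory factors bind.
Irf7 (chr1:205799974-205800273, minus strand): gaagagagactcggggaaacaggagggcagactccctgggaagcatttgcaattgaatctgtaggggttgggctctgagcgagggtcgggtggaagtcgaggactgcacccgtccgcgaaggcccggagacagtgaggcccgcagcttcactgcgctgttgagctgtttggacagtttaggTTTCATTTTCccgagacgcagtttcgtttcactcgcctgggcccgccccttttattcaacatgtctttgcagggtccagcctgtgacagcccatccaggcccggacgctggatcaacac
Ifi27 (chr6:128355062-128355361, plus strand): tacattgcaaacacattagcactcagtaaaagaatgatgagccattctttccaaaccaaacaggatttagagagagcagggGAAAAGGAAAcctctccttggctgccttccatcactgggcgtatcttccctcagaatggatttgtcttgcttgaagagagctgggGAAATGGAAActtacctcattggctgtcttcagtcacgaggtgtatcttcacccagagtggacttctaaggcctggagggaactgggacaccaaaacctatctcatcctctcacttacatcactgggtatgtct
Ifi44 (chr2:243303791-243304090, minus strand): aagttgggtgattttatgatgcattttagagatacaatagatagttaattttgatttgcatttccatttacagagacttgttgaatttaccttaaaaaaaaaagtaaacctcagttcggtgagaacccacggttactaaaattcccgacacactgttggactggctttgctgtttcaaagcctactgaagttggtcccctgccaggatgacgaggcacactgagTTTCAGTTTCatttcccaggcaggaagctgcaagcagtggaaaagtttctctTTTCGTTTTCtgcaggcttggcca
In the cell cycle group, capitals mark CCAAT, the box bound by NF-Y, and TTTGAA, the core of the cell cycle homology region, on either strand.
Ccnb2 (chr8:79981609-79981908, minus strand): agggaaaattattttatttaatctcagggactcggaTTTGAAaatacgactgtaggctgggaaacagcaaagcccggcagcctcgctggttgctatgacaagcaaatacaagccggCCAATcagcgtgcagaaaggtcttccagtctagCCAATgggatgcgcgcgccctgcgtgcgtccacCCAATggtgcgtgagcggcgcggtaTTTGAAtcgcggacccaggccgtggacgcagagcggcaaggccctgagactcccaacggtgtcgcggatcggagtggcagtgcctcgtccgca
Top2a (chr10:84473044-84473343, minus strand): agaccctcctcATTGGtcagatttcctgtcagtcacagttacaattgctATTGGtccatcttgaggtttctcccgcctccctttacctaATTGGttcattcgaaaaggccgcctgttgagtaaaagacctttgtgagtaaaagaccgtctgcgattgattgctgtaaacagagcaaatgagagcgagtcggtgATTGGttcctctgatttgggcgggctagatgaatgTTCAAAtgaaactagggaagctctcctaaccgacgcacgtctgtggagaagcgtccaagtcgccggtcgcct
Cdk1 (chr20:19265043-19265342, plus strand): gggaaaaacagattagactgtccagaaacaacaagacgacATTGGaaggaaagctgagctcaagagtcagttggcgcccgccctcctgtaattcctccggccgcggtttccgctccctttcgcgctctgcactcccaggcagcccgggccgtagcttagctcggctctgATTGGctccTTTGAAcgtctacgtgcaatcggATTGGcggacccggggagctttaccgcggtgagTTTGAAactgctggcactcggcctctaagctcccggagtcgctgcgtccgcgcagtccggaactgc

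Of 32 interferon genes on the array, 26 had a promoter in the RefSeq table, and the spaced GAAA pair was in 18 of them, against 3.92% of all 33469 promoter windows of that length. It was in 8 of the 10 promoters of members called lower and in 9 of the 14 promoters of tested members that were not called. CCAAT was in 28 of 37 promoters of cell cycle genes, against 37.5% of all windows, and TTTGAA was in 18 of 37, against 18.3%. Among called cell cycle genes CCAAT was in 17 of 17 promoters and TTTGAA in 12 of 17, and among tested members not called in 9 of 14 and 4 of 14. Sterol element cores (TCACNCCAC) were in 0 of 15 promoters of cholesterol genes, against 1.12% of all windows. A direct repeat of AGGNCA with 1 base between the copies, of the kind bound by PPAR-alpha, was in 0 of 24 promoters of fatty acid oxidation genes, against 0.415%. Counts of list members are counts of genes, each a match if any of its windows matched, while the percentages are shares of single windows. The counts and the percentages are therefore not measured alike. A match describes letters in a window and is no evidence of binding in these kidneys.

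Control ratios differed between the groups. The arrays carry probe sets for the 3' and the 5' end of the Gapdh mRNA, and a high 3' to 5' ratio goes with degraded RNA or incomplete labelling. The log2 ratio was 0.38, 0.49, 0.37 and 0.35 in the 4 Rapa 10 mg/kg rats, against 0.89, 0.60, 0.73 and 0.84 in the 4 vehicle rats. The groups did not overlap. The high ratio of these vehicle rats was known when the comparison was chosen, so it is given as a description with no test. The vehicle groups of the other days averaged 0.32 at day 1, 0.36 at day 14 and 0.41 at day 28, so the vehicle group of day 7, at 0.76, was the highest of the 4. Of all 28 groups only CsA 2.5 mg/kg at day 7 had a higher mean, 0.85. The 3' to 5' ratio of actin had means of 1.85 in Rapa 10 mg/kg rats and 2.10 in vehicle rats. It reads the same RNA on the same arrays as the Gapdh ratio, so it too is given with no test. The hybridization controls differed by -0.17 on the log2 scale (two-sided exact permutation p = 0.143). Median log2 intensity before normalization was 0.20 higher in Rapa 10 mg/kg rats (two-sided exact permutation p = 0.0286, the smallest that 4 against 4 rats can give). The labels give no batch or scan date, and their part in the results was not tested. The counts of the main gene lists are given also with the Gapdh ratio as a covariate, and against the vehicle rats of days 1 and 14 in place of those of day 7.

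**Figure D1:**
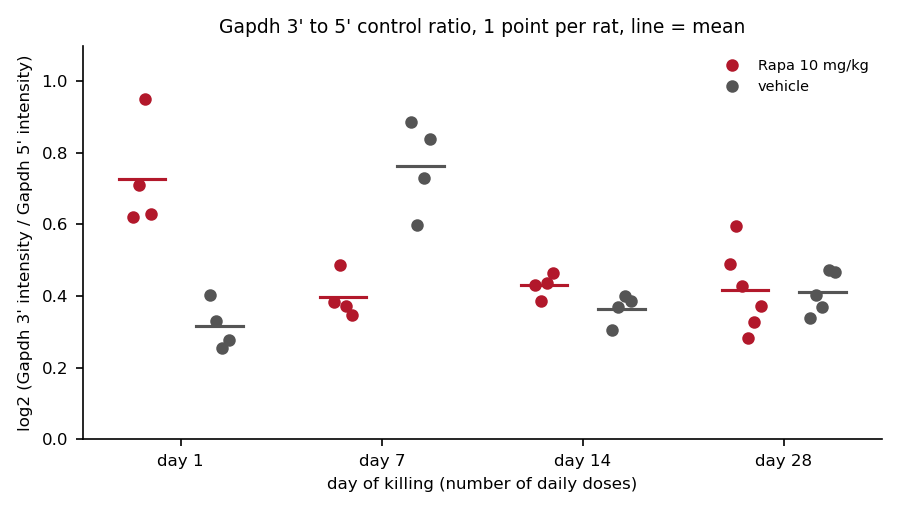
Log2 ratio of the 3' to the 5' Gapdh intensity in each rat (vertical axis), by day of killing (horizontal axis), for Rapa 10 mg/kg (red, left) and vehicle (grey, right); points are rats and lines are group means. At day 7 the 4 Rapa 10 mg/kg rats sit below all 4 vehicle rats, and at day 1 the 4 Rapa 10 mg/kg rats sit above all 4 vehicle rats.

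After 7 doses, 778 of 10663 tested genes (7.3%) differed between Rapa 10 mg/kg and vehicle kidneys at an adjusted p under 0.05 (limma, Benjamini-Hochberg), which is the meaning of "called", "rose" and "fell" below. Of these, 320 rose (3% of tested genes) and 458 fell (4.3%). Changes over 2-fold were found in 67 called genes, of which 10 rose and 57 fell. In 208 of the called rises and 310 of the called falls the 4 Rapa rats did not overlap the 4 vehicle rats. Over all tested genes, 9.77% showed such a separation, 418 upward (3.92%) and 624 downward (5.85%). With the Gapdh ratio as a covariate 502 genes were called (4.71%, with 2.33% higher and 2.38% lower), among them 166 of the 320 rises and 219 of the 458 falls. Against the vehicle rats of days 1 and 14 the count was 1023 (9.59%, with 4.03% higher and 5.56% lower), among them 94 of the rises and 247 of the falls. A total of 69 rises and 144 falls were kept under both settings. Without rat 2 of the Rapa 10 mg/kg group the count was 447, and with the 8 arrays fitted on their own it was 65.

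Cell cycle genes were lower after Rapa. Of 38 tested members of this list 19 fell and 0 rose, and their median log2 change was -0.63, against -0.03 over all tested genes. Top2a, the topoisomerase of dividing cells, had log2 levels of 5.65, 6.54, 5.29 and 4.21 in the Rapa 10 mg/kg rats, against 7.80, 6.78, 7.31 and 7.42 in vehicle rats. No Rapa rat reached the lowest vehicle rat, and the fall was 1.90 on the log2 scale (SE 0.28, limma adjusted p = 1.05e-06). A dimmer probe set of Top2a was at -0.73 and not called with all probe sets tested (limma adjusted p = 0.20). The file gives no detection calls, and 16 was added to each intensity before log2, so levels near the floor of 4 may be background and the size of a fall to such levels depends on that offset. Mki67, which encodes the proliferation marker Ki-67, was at 5.12, 4.99, 5.33 and 5.36 in Rapa rats, against 7.07, 7.38, 6.65 and 6.54 in vehicle rats. The groups were well apart, with a change of -1.71 (SE 0.27, limma adjusted p = 6.89e-06). The mitotic cyclins and their kinase fell together, with changes of -1.27 for Ccnb2, -0.95 for Ccnb1 and -1.01 for Cdk1. Genes of spindle and cytokinesis followed, among them the kinesins Kif20a (-1.89), Kif23 (-0.82) and Kif11 (-0.65), the spindle midzone protein Prc1 (-1.34), the securin Pttg1 (-1.54), the phosphatase Cdkn3 (-1.64) and Racgap1 (-0.98). Rrm1, a subunit of ribonucleotide reductase, fell by 0.56 on the log2 scale, although 1 Rapa rat, at 8.14, overlapped the vehicle rats. Pcna (-0.15) and the replication helicase genes Mcm6 (-0.46) and Mcm7 (0.27), named here after their values were seen, were not called. The summed level of the list ran from 6043 to 6707 intensity units in Rapa rats and from 7904.5 to 9385 in vehicle rats.

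The falls of cell cycle genes were counted also under the other settings. With the Gapdh ratio as a covariate, a fit that still uses the vehicle rats of day 7, 14 members were called lower (2.38% of all genes). Against vehicle of days 1 and 14, rats killed on other days, 18 members were called lower (5.56%). Kif23 was not called under either setting, and its change against vehicle of days 1 and 14 was -0.19 (limma adjusted p = 0.67). Leaving out each rat in turn gave between 17 and 20 called falls. In bulk tissue, fewer cells of a type and less RNA per cell cannot be told apart.

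Interferon-stimulated genes were lower after Rapa. Of 30 tested members 14 fell and 0 rose, all 30 changes were negative, and the median log2 change was -0.71. Irf7, the transcription factor that amplifies type I interferon responses, had log2 levels of 7.51, 8.08, 7.02 and 7.78 in Rapa 10 mg/kg rats, against 9.47, 9.14, 8.97 and 9.03 in vehicle rats. Every Rapa rat was below every vehicle rat, with a change of -1.56 (SE 0.33, limma adjusted p = 0.000901). Isg15, a ubiquitin-like protein, was at 6.62, 6.54, 5.81 and 5.91 in Rapa rats, against 8.21, 8.13, 7.25 and 7.94 in vehicle rats, a change of -1.66 (SE 0.35, limma adjusted p = 0.000901). Again no rats of the groups overlapped. Usp18, which removes ISG15 from proteins, fell by 1.63 on the log2 scale. The antiviral effectors Mx1 (-1.15), Ifit2 (-0.96) and Oas1a (-0.87) fell, as did Ifi27 (-1.13), Ifi44 (-1.16) and the GTPases Irgm (-0.90) and Gbp2 (-0.93). Tap1, the peptide transporter of MHC class I presentation, fell by 1.49, and Stat2, a subunit of the factor that binds these promoters, by 0.54. Outside the list, the 15 largest falls without overlap included Slfn4 (-2.15), which interferon induces in mouse myeloid cells and which is also in the neutrophil list, Ddx60 (-2.00), an antiviral helicase, and Ifgga2l1 (-1.62).

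With the Gapdh ratio as a covariate 9 interferon genes were called lower, and against vehicle of days 1 and 14 14 were. Oas1a was called under neither of these settings, with changes of -0.64 (limma adjusted p = 0.27) and -0.36 (limma adjusted p = 0.43). The number called ranged from 9, without rat 4 of the Rapa 10 mg/kg group, to 16 when rats were left out in turn. B2m, the invariant chain of MHC class I, named here after its value was seen, was at -0.01 and was not called.

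**Figure D2:**
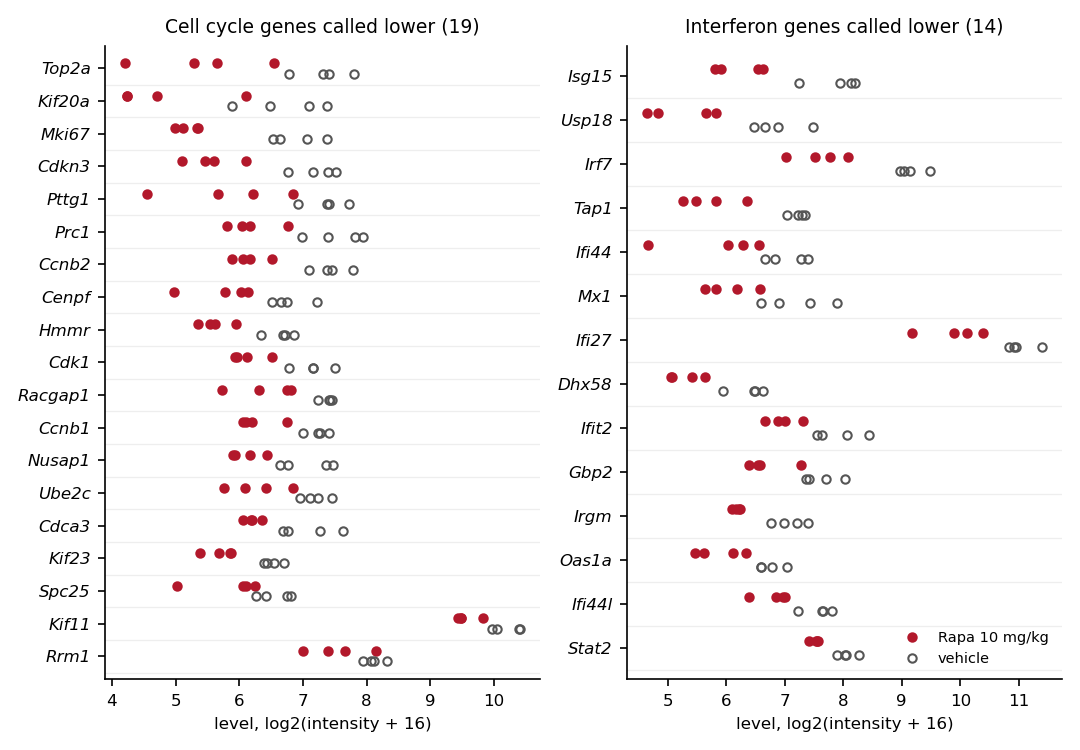
Log2 levels (horizontal axis) of the 19 cell cycle genes and the 14 interferon genes called lower, with 1 point per rat, Rapa 10 mg/kg in red above vehicle in open grey. In most rows every red point lies left of every grey point; Kif20a and Rrm1 overlap.

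Markers of immune cells were lower in part. Of 24 macrophage and myeloid markers 3 fell, namely Cd68 (-0.73), Ptprc, the leukocyte antigen CD45 (-0.64), and Laptm5 (-0.64). The median was -0.49, with 23 of 24 changes negative, and the summed level ran from 11925 to 14007 in Rapa rats and from 12765 to 19974 in vehicle rats. With the Gapdh ratio as a covariate only Laptm5 was called, and 8 markers were called against vehicle of days 1 and 14. Without vehicle rat 2 none was called. Of 10 T and NK cell markers 1 fell, the T cell kinase Lck (-0.57), against 4.3% of all tested genes. In that list 8 changes were negative and 2 positive, and 0 markers were called with the Gapdh ratio as a covariate. Only 6 of 15 neutrophil markers on the array were bright enough to be tested. Of these 2 fell, Slfn4 and the gelatinase Mmp9 (-1.86), while 4 changes were negative and 2 positive. Of 6 B and plasma cell markers Jchain, the joining chain of antibodies, fell by 1.12, while Xbp1, a transcription factor of plasma cells and of secretory cells in general, rose by 0.41. A dimmer probe set of Jchain was at 0.23 and not called with all probe sets tested (limma adjusted p = 0.74). With the Gapdh ratio as a covariate 0 genes of this B and plasma cell list were called lower and 1 higher. The summed level of that list was higher in Rapa rats, at 2726 to 3208, than in vehicle rats, at 2298 to 2559. Xbp1, at mean levels of 11.22 in Rapa and 10.82 in vehicle rats, weighs heavily in that sum. The changes of the other 5 markers were negative, and the median of the list was -0.16. The part of these cells in the falls of interferon and cell cycle genes was not tested. All 13 liver, 6 skeletal muscle, 12 adipose and 8 red cell markers tested were not called.

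Genes of cholesterol synthesis were lower after Rapa, with 7 of 19 called lower, 0 higher and a median change of -0.32. Mvd, mevalonate diphosphate decarboxylase, was at 5.57, 5.68, 5.24 and 4.54 in Rapa 10 mg/kg rats, against 6.44, 6.40, 6.22 and 6.52 in vehicle rats. All Rapa rats were below all vehicle rats, and the change was -1.14 (SE 0.26, limma adjusted p = 0.00212). Falls were also found for the isomerase Idi1 (-0.69), the farnesyl diphosphate synthase Fdps (-0.27), the later enzymes Cyp51 (-0.46), Tm7sf2 (-0.66) and Hsd17b7 (-1.14), and the sterol transporter Stard4 (-0.48). Fasn, the fatty acid synthase, was at 8.89 to 9.48 in Rapa rats and 9.08 to 9.54 in vehicle rats and was not called (limma adjusted p = 0.71). Of 15 fatty acid synthesis genes 0 were called. With the Gapdh ratio as a covariate 5 cholesterol genes were called lower, against vehicle of days 1 and 14 7 were, and without rat 2 of the Rapa 10 mg/kg group 4 were. When the 8 arrays were fitted on their own, 0 were called lower. Vldlr, the receptor for very low density lipoproteins, fell by 0.74 on the log2 scale.

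Genes of fatty acid oxidation and other PPAR-alpha targets were lower, with 12 of 25 called lower, 0 higher and a median change of -0.26. Pdk4, a kinase that inhibits pyruvate dehydrogenase, was at 9.48, 8.76, 9.76 and 8.85 in Rapa 10 mg/kg rats, against 10.10, 10.79, 10.82 and 10.32 in vehicle rats. The groups did not overlap, with a change of -1.29 (SE 0.30, limma adjusted p = 0.00254). A dimmer probe set of Pdk4 was at -0.09 and not called with all probe sets tested (limma adjusted p = 0.90). Cyp4a1, a fatty acid hydroxylase, was at 11.38, 11.05, 10.45 and 11.30 in Rapa rats, against 11.92, 11.67, 12.04 and 11.75 in vehicle rats, again with no overlap (-0.80, SE 0.19, limma adjusted p = 0.00281). Angptl4, a lipoprotein lipase inhibitor, fell by 1.32, although 1 Rapa rat at 10.39 was within the vehicle range. The enzymes of the pathway changed less, with Cpt2 at -0.49, Acadl at -0.24, Acaa2 at -0.52, Eci1 at -0.55, Ehhadh at -0.57 and the binding protein Fabp3 at -0.56. Cpt1a, the carnitine palmitoyltransferase that limits the pathway, was called at -0.26 against vehicle of day 7. Its dimmer probe set was at 0.38 there and not called with all probe sets tested (limma adjusted p = 0.12). The brighter probe set was at 0.06 (limma adjusted p = 0.70) against vehicle of days 1 and 14. Against those vehicle rats Pdk4 was at -0.70 (limma adjusted p = 0.074) and Angptl4 at -0.57 (limma adjusted p = 0.24), and neither was called. The count of called members was 12 there and 9 with the Gapdh ratio as a covariate. Without rat 4 of the Rapa 10 mg/kg group it was 6, and with the 8 arrays fitted on their own it was 0.

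**Figure D3:**
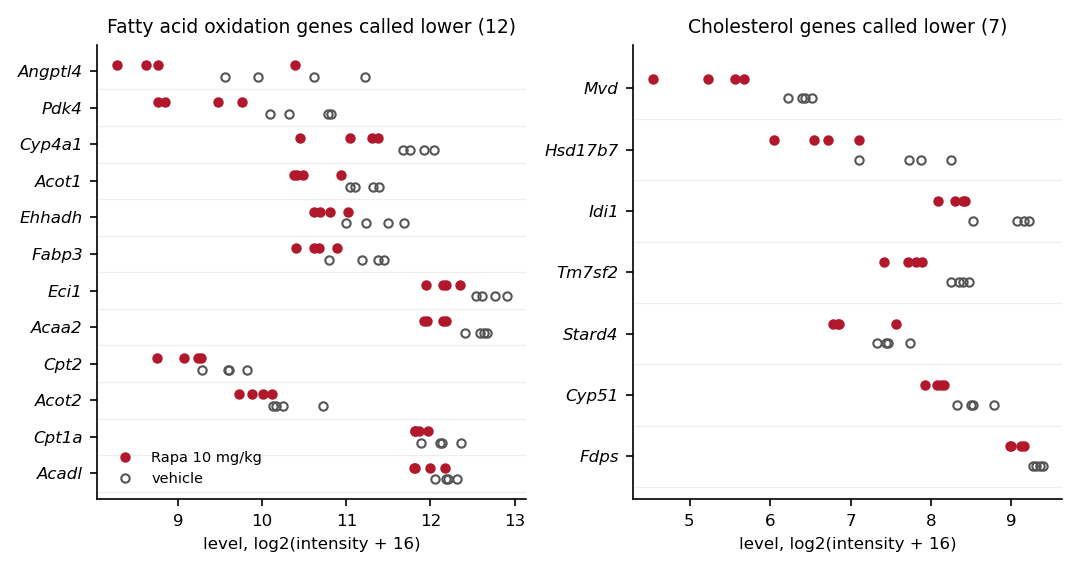
Log2 levels (horizontal axis) of the 12 fatty acid oxidation genes and the 7 cholesterol genes called lower, with 1 point per rat, Rapa 10 mg/kg in red above vehicle in open grey. Pdk4 and Mvd separate fully, while Angptl4, Cpt1a and Stard4 each have overlapping rats.

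Transcripts of the drug's own pathway were called in both directions, but not those of its target and main effectors. Mtor was at 8.73 to 8.84 in Rapa 10 mg/kg rats and 8.74 to 9.02 in vehicle rats, and Mtor, Rps6kb1 (S6 kinase), Eif4ebp1 (4E-BP1) and Fkbp1a were not called (limma adjusted p between 0.489 and 0.879). Of 31 tested genes of mTOR complexes and regulators 2 rose and 2 fell, against 3% and 4.3% of all tested genes, and the median change was -0.04. The falls were Flcn (-0.33) and its partner Fnip1 (-0.47), which activate RagC and RagD at the lysosome, and the rises were Eif4ebp2 (0.34) and the mTORC2 subunit Mapkap1 (0.34). Of these 4 genes Fnip1 alone was called with the Gapdh ratio as a covariate, and none against vehicle of days 1 and 14 (limma adjusted p between 0.10 and 0.53). Eef2k, the kinase that inhibits elongation factor 2 and that S6 kinase restrains, was at 6.50, 4.92, 4.85 and 5.03 in Rapa rats, against 6.89, 6.72, 7.21 and 6.95 in vehicle rats. It fell by 1.61 (SE 0.28, limma adjusted p = 3.51e-05), with Rapa rat 1 far above the other 3. Dimmer probe sets of Eef2k were at -0.44 and -0.37. Neither was called with all probe sets tested (limma adjusted p = 0.41 and 0.39). Grb10, an adaptor that dampens insulin signalling, fell by 0.64 (SE 0.11, limma adjusted p = 3.97e-05), with no overlap between groups. Dimmer probe sets of Grb10 were at 0.32 and -0.12, and neither was called with all probe sets tested (limma adjusted p = 0.50 and 0.86). Igf1 was at 8.62, 8.57, 8.71 and 8.33 in Rapa rats, against 9.54, 9.12, 9.55 and 9.58 in vehicle rats. Its groups did not overlap, but the change of -0.89 was not called (limma adjusted p = 0.0622).

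Ribosomal protein and translation factor mRNAs were slightly higher, with 8 of 27 called higher, 0 lower and a median change of 0.13. Rps6, the substrate by which S6 kinase activity is usually read, was at 12.89, 12.90, 12.88 and 12.94 in Rapa 10 mg/kg rats, against 12.65, 12.55, 12.65 and 12.71 in vehicle rats. The change was small but without overlap (0.26, SE 0.06, limma adjusted p = 0.00334). Rpl12 (0.28), Rpl4 (0.25), Rps24 (0.39) and Eef1a1 (0.19) rose too, and many copies of such genes exist, so that probes may not tell them from pseudogenes. A much dimmer probe set of Rps24 was at -0.275 and not called with all probe sets tested (limma adjusted p = 0.38). Subunits of the respiratory chain went the other way, with 6 of 36 called lower, 33 of 36 changes negative and a median of -0.09. Ndufb9 fell by 0.29, Cox6a1 by 0.23 and Cox5b by 0.21 on the log2 scale. Of 33 lysosome and autophagy genes 7 fell and 0 rose. Ctsa, the protective protein of lysosomal galactosidase, was at 12.58, 12.11, 12.58 and 12.46 in Rapa rats, against 13.19, 13.27, 13.17 and 13.01 in vehicle rats. It was clearly apart, with the change of -0.73 (SE 0.09, limma adjusted p = 3.24e-08). Hexa, a subunit of hexosaminidase, fell by 0.60, Ctsb, cathepsin B, by 0.24 and the calcium channel Mcoln1 by 0.42. Leaving out rats in turn gave 2 (without rat 2 of the Rapa 10 mg/kg group) to 6 called lysosome genes and 4 (without vehicle rat 2) to 10 called ribosomal genes. With the Gapdh ratio as a covariate 7 ribosomal genes were called higher, and 4 respiratory and 6 lysosome genes lower. Against vehicle of days 1 and 14 5 ribosomal genes were called higher, and 12 respiratory and 6 lysosome genes lower. Rps6 was not called there (0.12, limma adjusted p = 0.14).

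Most genes that define nephron segments were not called. Over all tested genes 3% rose and 4.3% fell. Among 23 proximal tubule genes 2 rose and 2 fell. Aqp1, the water channel, rose by 0.28 (limma adjusted p = 0.00063), and Cyp2e1 (-0.77) and Gatm, which makes the precursor of creatine (-0.56), fell. Glyatl2, an acyltransferase of the glycine conjugation family, was at 8.75, 8.69, 8.40 and 8.39 in Rapa rats, against 7.06, 7.51, 7.68 and 7.08 in vehicle rats, a rise of 1.23 with no overlap (SE 0.22, limma adjusted p = 8.49e-05). It was 1.12 with the covariate, and against vehicle of days 1 and 14 it was 0.54 and not called (limma adjusted p = 0.058). Slc47a1, the MATE1 exporter of cations into urine, fell by 0.46. Of 9 intercalated cell genes 2 fell. Slc26a4, the chloride/bicarbonate exchanger pendrin, was at 8.89, 9.05, 8.80 and 9.05 in Rapa rats, against 9.90, 9.49, 10.35 and 10.04 in vehicle rats. It fell by 1.00 (SE 0.20, limma adjusted p = 0.000333) with the groups apart, and the proton pump subunit Atp6v1g3 fell by 0.61. Slc26a4 was called under both other settings (-0.82 and -0.65), and Atp6v1g3 under neither. Aqp1 was also called under neither. Of 15 genes of the thick ascending limb, Kcnj1, the ROMK channel, and Cldn19 rose, by 0.59 and 0.69, but neither was called against vehicle of days 1 and 14, where Kcnj1 was at -0.17 (limma adjusted p = 0.55) and Cldn19 at 0.16 (limma adjusted p = 0.59). With the covariate Cldn19 alone was called.

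Of 17 tested genes of the distal convoluted tubule list 1 rose, against 3% of all tested genes. The median of the list was 0.04, with 9 changes positive and 8 negative. S100g, the vitamin D-dependent calcium buffer calbindin-D9k, was at 8.36, 8.69, 8.96 and 8.40 in Rapa 10 mg/kg rats, against 7.98, 7.54, 7.68 and 7.82 in vehicle rats. It was higher in every Rapa rat (0.85, SE 0.18, limma adjusted p = 0.00073), and the change was 1.02 against vehicle of days 1 and 14. Calb1, calbindin-D28k, was at 12.39, 12.19, 11.99 and 12.51 in Rapa rats, against 12.67, 11.99, 12.31 and 12.15 in vehicle rats, and the ranges overlapped almost fully. Slc12a3, the thiazide-sensitive cotransporter, was 0.50 lower on the log2 scale and not called (limma adjusted p = 0.0998), with -0.07 after adjustment for the Gapdh ratio. Of 12 tested genes of the podocyte list 2 rose and 0 fell, against 3% and 4.3% of all tested genes. These were Actn4, whose mutations cause glomerulosclerosis in humans, and the cell cycle inhibitor Cdkn1c, by 0.39 and 0.58. In bulk kidney RNA the cells in which they rose are not known. Of 28 tested genes of tubular injury 0 were called higher and 1 lower (Vcam1, -0.53), against 3% and 4.3% of all tested genes. Their median change was -0.01. With the Gapdh ratio as a covariate 0 were called higher and 0 lower, with a median of 0.06. The comparison with vehicle of days 1 and 14 called 1 higher and 1 lower, with a median of 0.17. Havcr1, which encodes KIM-1, was at 5.80, 6.71, 6.89 and 6.44 in Rapa rats, against 6.10, 6.78, 6.32 and 6.86 in vehicle rats. Lcn2, Spp1 and Clu were likewise not called, with changes of 0.16, 0.54 and 0.35 and SEs of 0.52, 0.33 and 0.30.

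Single genes outside these groups changed strongly. Klk1c9, a kallikrein-related protease, was at 5.01, 5.93, 5.72 and 4.23 in Rapa 10 mg/kg rats, against 7.34, 6.81, 7.50 and 7.44 in vehicle rats. Its fall of 2.05 (SE 0.46, limma adjusted p = 0.00212) was exceeded among falls without overlap only by that of Slfn4, and the related Klk1c4 fell by 1.69. Kallikrein genes of this family are closely alike in sequence, so their probes may share signal. Ptgds, prostaglandin D synthase, fell by 1.40 and Hsd17b1, an estrogenic steroid dehydrogenase, by 1.94. Against vehicle of days 1 and 14 all 4 were called, and with the Gapdh ratio as a covariate Klk1c9 and Ptgds were. Slc7a12, an amino acid transporter, was at 12.30, 12.21, 12.25 and 11.88 in Rapa rats, against 10.54, 10.51, 11.37 and 10.85 in vehicle rats. No rats overlapped, and the rise was 1.34 (SE 0.30, limma adjusted p = 0.00198). It was also called with the covariate and against vehicle of days 1 and 14 (0.88). Cyp2c11, the male-specific cytochrome P450 of rat liver, ranged from 6.85 to 9.61 in Rapa rats and from 8.95 to 11.26 in vehicle rats and was not called (limma adjusted p = 0.244). Of 35 matrix genes 7 fell, among them Fn1, fibronectin (-0.67), and the collagens Col5a1 (-0.69) and Col6a3 (-0.67), while Col1a1 (-0.87) was not called (limma adjusted p = 0.0531). A dimmer probe set of Col6a3 was at 0.24 and not called with all probe sets tested (limma adjusted p = 0.68). Without rat 2 of the Rapa 10 mg/kg group 2 matrix genes were called. With the covariate 5 were called lower, and against vehicle of days 1 and 14 10 were called lower and 1 higher.

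Immediate early genes Dusp6 (0.90), Ier3 (0.88), Junb (0.83) and Klf4 (0.48) rose, 4 of 22 in that list. Dimmer probe sets of Dusp6 were at 0.72 and -0.20, and neither was called with all probe sets tested (limma adjusted p = 0.076 and 0.88). With the Gapdh ratio as a covariate 2 were called higher, and against vehicle of days 1 and 14 5 were, with medians of 0.10, -0.03 and 0.40 under the 3 settings. Some of the largest rises were not called against the other vehicle rats. Adam9, a membrane metalloprotease, was at 6.75, 6.93, 6.73 and 6.77 in Rapa 10 mg/kg rats, against 4.88, 5.72, 5.57 and 5.59 in vehicle rats, and had the largest rise of 1.35 (SE 0.28, limma adjusted p = 0.00073). It was not called with the Gapdh ratio as a covariate (0.61, limma adjusted p = 0.18) or against vehicle of days 1 and 14 (0.15, limma adjusted p = 0.78). The same held for Vdr, the vitamin D receptor, which rose by 0.97 against vehicle of day 7 and was at 0.33 (limma adjusted p = 0.40) and 0.05 (limma adjusted p = 0.91) under these settings. Ap1s1, an adaptor of clathrin coats (0.94), and the translin gene Tsn (1.15) were called with the covariate but were at 0.09 and 0.19 against vehicle of days 1 and 14. Between the vehicle groups themselves 547 genes differed (5.13%), with log2 differences of -1.20 for Adam9, -0.92 for Vdr, -0.84 for Ap1s1 and -0.97 for Tsn in vehicle of day 7 against vehicle of days 1 and 14. By contrast, Tgm2, transglutaminase 2, was at 11.29, 11.36, 11.17 and 11.04 in Rapa rats, against 10.35, 10.44, 10.21 and 10.31 in vehicle rats. Its rise of 0.89 (SE 0.17, limma adjusted p = 0.000285) was 0.89 with the covariate and 0.74 against vehicle of days 1 and 14, and it was called under both. Spns2, an exporter of sphingosine-1-phosphate, was also called under all 3 settings, at 1.09, 1.04 and 0.91. Igfbp1, an insulin-suppressed binding protein, was at 0.02 against vehicle of day 7 (limma adjusted p = 0.987) but 2.12 higher against vehicle of days 1 and 14 (limma adjusted p = 0.0013).

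**Figure D4:**
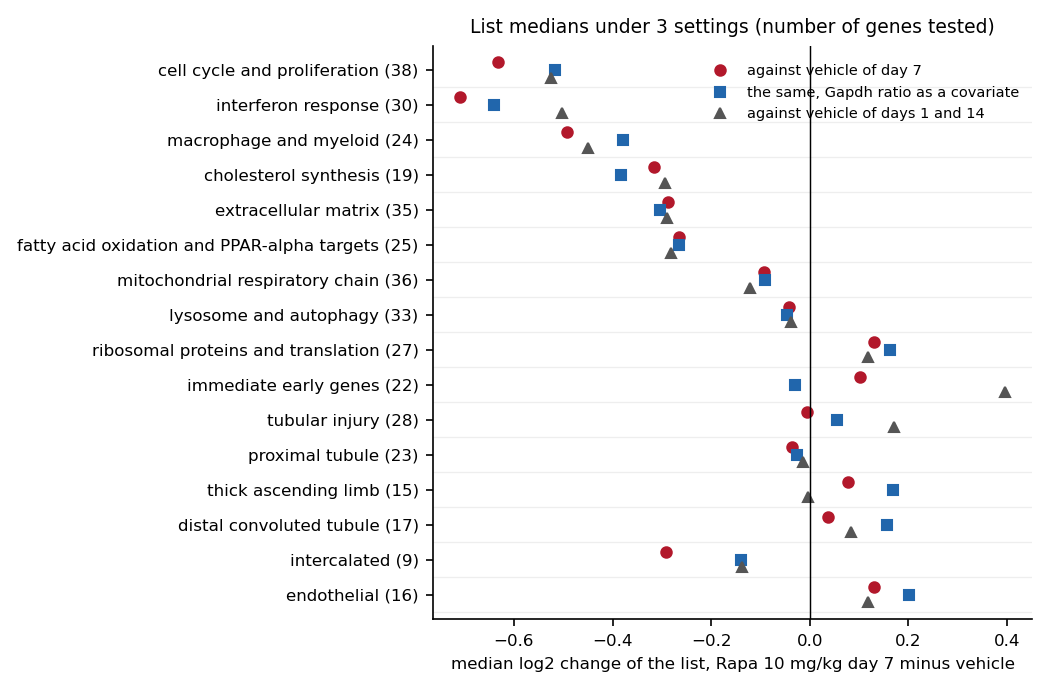
Median log2 change of 16 gene lists (horizontal axis) in Rapa 10 mg/kg rats of day 7 minus vehicle of day 7 (circles), the same with the Gapdh ratio as a covariate (squares), and minus vehicle of days 1 and 14 (triangles). Cell cycle and interferon medians stay between -0.71 and -0.50, while the immediate early median lies on both sides of 0.

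Whether the effect grew with dose was asked by comparing Rapa 10 mg/kg with Rapa 1 mg/kg at day 7, a comparison without vehicle rats. limma called 0 of 10663 genes (0%), with 918 at an unadjusted p under 0.05, 2 called when the day 7 arrays were fitted alone, 4 over all probe sets and 0 to 3 when rats were left out in turn. Top2a averaged 0.33 lower at 10 mg/kg on the log2 scale (95% interval -0.88 to 0.22). Irf7 had levels of 7.51, 8.08, 7.02 and 7.78 at 10 mg/kg, against 8.52, 8.63, 8.19 and 8.08 at 1 mg/kg, a difference of -0.76 (95% interval -1.41 to -0.10) that was not called after adjustment (limma adjusted p = 0.499). The highest rat at 10 mg/kg and the lowest at 1 mg/kg had the same level to 2 decimals. For Slc7a12 the difference was -0.03 (95% interval -0.63 to 0.57), and for Eef2k it was -0.96 (-1.51 to -0.41, limma adjusted p = 0.28). Against the same vehicle rats, which the doses share, 778 genes were called at 10 mg/kg and 450 at 1 mg/kg (4.22%, with 1.61% higher and 2.61% lower). Cell cycle genes called lower were 19 at 10 mg/kg and 18 at 1 mg/kg, with medians of -0.63 and -0.63. For interferon genes the counts were 14 at 10 mg/kg and 4 at 1 mg/kg, with medians of -0.71 and -0.66.

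The course of the 10 mg/kg effect was followed with each day's own vehicle rats. The comparison called 301 genes at day 1 (2.82%, with 1.7% higher and 1.13% lower) and 778 at day 7. It called 1118 at day 14 (10.5%, with 5.19% higher and 5.3% lower) and 1677 at day 28 (15.7%, with 7.57% higher and 8.16% lower). Day 28 had 6 Rapa and 5 vehicle rats and the other days 4 of each, so the counts of called genes do not rest on equal numbers of rats. Cell cycle genes called lower numbered 0 at day 1, 19 at day 7, 14 at day 14 and 10 at day 28, and those called higher 0, 0, 3 and 4. Interferon genes called lower numbered 0, 14, 1 and 2, and ribosomal genes called higher 2, 8, 17 and 23 at the same days. Top2a changed by -0.41, -1.90, -1.62 and -0.94, and Irf7 by -0.06, -1.56, -0.54 and -0.84. Tested as a difference of effects, Irf7 fell more at day 7 than at day 1 (difference of effects -1.50, SE 0.46, limma adjusted p = 0.0456). Its effects at day 7 and day 14 were not shown to differ (-1.02, limma adjusted p = 0.246). Tap1 fell more at day 7 than at each other day, with differences of -1.40 from day 1, -1.95 from day 14 and -1.37 from day 28 (limma adjusted p = 0.0365, 0.00422 and 0.043). Ctsa fell by 0.55 more at day 7 than at day 1 (limma adjusted p = 0.00488). The difference of effects was called for 434 genes between days 7 and 1 (4.07%), 219 between days 7 and 14 (2.05%) and 186 between days 7 and 28 (1.74%). At day 1 the Gapdh ratio ran opposite to day 7, with 0.73 in Rapa 10 mg/kg rats and 0.32 in vehicle rats. With it as a covariate the counts were 8, 47 and 158.

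Rapa 10 mg/kg was also set against the higher doses of both calcineurin inhibitors at day 7, which uses no vehicle rats, at doses that differ (10, 6 and 25 mg/kg). The mean log2 Gapdh ratios were 0.40 for Rapa 10 mg/kg, 0.44 for FK506 and 0.44 for CsA. Against FK506 6 mg/kg 251 genes were higher (2.35%) and 436 lower (4.09%) in Rapa rats, or 6.44% in all. Against CsA 25 mg/kg 369 were higher (3.46%) and 636 lower (5.96%), or 9.43% in all. The same Rapa rats stand in both comparisons, and without rat 2 of that group the counts were 400 against FK506 and 646 against CsA. Cell cycle genes were called lower in Rapa rats for 14 of 38 against FK506 and 18 of 38 against CsA. Top2a was at 5.65, 6.54, 5.29 and 4.21 in Rapa 10 mg/kg rats, against 7.27, 6.81, 6.39 and 6.57 in FK506 rats and 6.96, 7.21, 7.22 and 6.97 in CsA rats. The differences were -1.33 (SE 0.28, limma adjusted p = 0.000629) and -1.67 (SE 0.28, limma adjusted p = 7.19e-06), with 1 Rapa rat within the FK506 range. Interferon genes were called lower for 5 of 30 against FK506 and 13 of 30 against CsA, including Irf7, at -1.02 and -1.08. The fall of Mvd held against both drugs (-1.14 and -0.94). Pdk4 did not differ beyond the spread, at -0.23 against FK506 (95% interval -0.82 to 0.37) and 0.02 against CsA (-0.57 to 0.62).

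Distal tubule genes were higher in Rapa rats, with 8 of 17 called higher against FK506 (2.35% of all genes) and 8 of 17 against CsA (3.46%). Calb1 was at 12.39, 12.19, 11.99 and 12.51 in Rapa 10 mg/kg rats, against 10.65, 9.97, 10.32 and 9.87 in FK506 rats and 10.48, 10.24, 9.22 and 9.86 in CsA rats. Every Rapa rat was above every FK506 and CsA rat, and the differences were 2.07 (limma adjusted p = 8.29e-10) and 2.32 (limma adjusted p = 1.35e-11). Slc12a3 was 1.64 and 1.46 higher in Rapa rats than in FK506 and CsA rats. Ptgs2, inducible cyclooxygenase, was 2.51 and 1.84 higher, and Havcr1 differed by -2.63 from FK506 rats (limma adjusted p = 0.000631). Klk1c9 differed by -2.85 from FK506 and -2.28 from CsA rats, and Klk1c4 by -2.76 and -2.04. Of 24 macrophage markers 20 were called lower in Rapa rats than in CsA rats and 1 lower than in FK506 rats. Fcgr3a, an immunoglobulin receptor, differed by -3.02 from CsA rats (limma adjusted p = 1.35e-11), at 7.13 to 7.68 in Rapa rats and 10.06 to 10.88 in CsA rats.

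**Figure D5:**
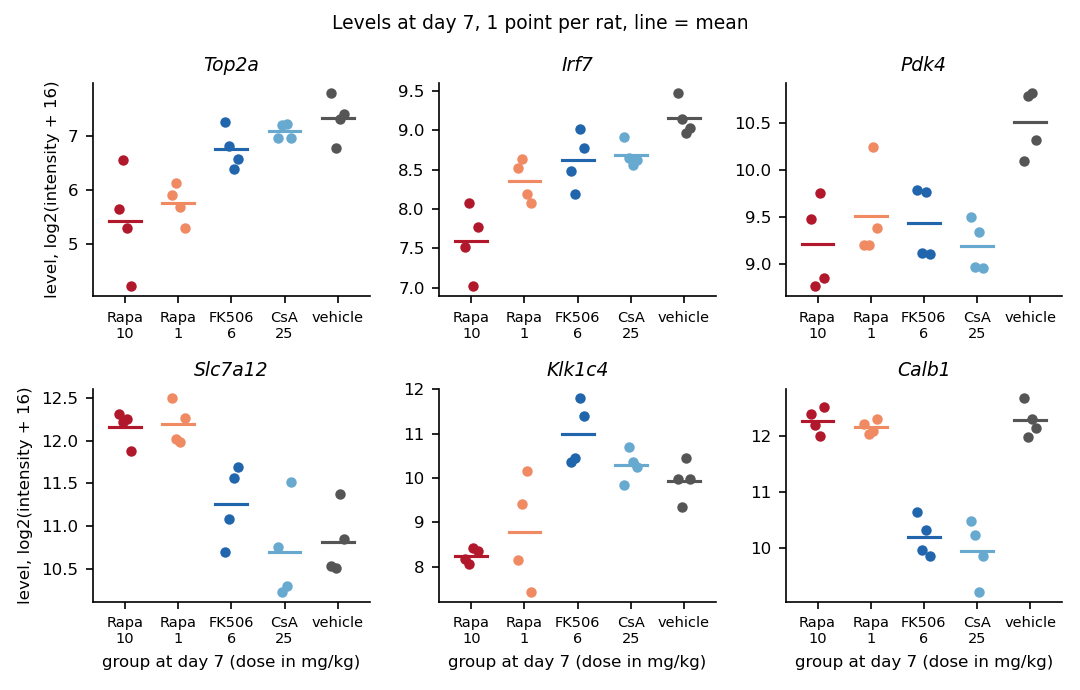
Log2 levels (vertical axes) of Top2a, Irf7, Pdk4, Slc7a12, Klk1c4 and Calb1 at day 7 in rats given Rapa 10 mg/kg, Rapa 1 mg/kg, FK506 6 mg/kg, CsA 25 mg/kg or vehicle (horizontal axes); points are rats and lines are means. Calb1 is low in FK506 and CsA rats, and the mean of Top2a is lowest in the Rapa groups.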

How the data were processed

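Kidney RNA of 120 rats was hybridized to 1-colour Affymetrix Rat 230 2.0 arrays, 1 per rat. The deposited values are linear probe set intensities, obtained with the scanner's GeneChip Operating Software per the labels, with the scaling not given in the sources used here. The file holds no detection calls. Here 16 was added, log2 taken and quantile normalization applied over 120 arrays (R 4.3.3, limma 3.58.1). Of 31099 probe sets 20826 had 1 gene symbol in the platform annotation, and the brightest probe set stood for each of 14217 genes. The dimmest 25% were left out, and 10663 genes were tested. limma fitted 1 mean per group (28 groups, 92 residual degrees of freedom), with Benjamini-Hochberg adjustment and a threshold of 0.05. The number of rats limits the precision. Genes named were drawn from the 15 largest rises and falls without overlap, fixed kidney genes, and up to 5 per side of other comparisons. They were drawn also from the called members of each of 46 lists and its up to 4 members with the largest change. Outside this rule 4 were named by their values. Not every gene under the rule is named, for example Rragd of the mTOR list (-0.66, not called). Members and lists were chosen with earlier results of these data known. Alternatives were other vehicle rats, covariates, filters and left-out rats.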

Additional observations from a re-analysis of the deposited data

Results flagged for a closer look

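In some groups of 4 rats at day 7, 1 rat lay far from the other 3 by Dixon's criterion, which chance meets in about 1 in 20 groups. The values are log2 levels. In the Rapa 10 mg/kg group these were Kif11 at 9.82 in rat 3, Stat2 at 7.41 in rat 4, Slfn4 at 6.34 in rat 3, Ifgga2l1 at 4.37 in rat 4, Stard4 at 7.57 in rat 4, Eef2k at 6.50 in rat 1 and Junb at 8.53 in rat 3. In the vehicle group these were Slfn4 at 9.80 in rat 2, Fasn at 9.08 in rat 3, Igf1 at 9.12 in rat 2, Rpl12 at 12.08 in rat 2, Clu at 9.69 in rat 3 and Hsd17b1 at 8.61 in rat 2.

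The effect of Rapa 10 mg/kg (Rapa minus vehicle, each day with its own vehicle rats) differed between days in limma's test of the difference for 434 genes between days 7 and 1, 219 between days 7 and 14 and 186 between days 7 and 28. The 3 tests share the rats of day 7, and the Gapdh ratio of the vehicle rats was highest at that day. Values below are log2 differences, the effect at day 7 minus that at the other day, for genes named above. Against day 1, the effect at day 7 was lower for Irf7 (-1.50), Ccnb2 (-1.14), Top2a (-1.50), Kif20a (-1.48), Pttg1 (-1.42), Cdkn3 (-1.55), Rrm1 (-0.73), Isg15 (-1.70), Usp18 (-1.76), Tap1 (-1.40), Slfn4 (-2.25), Ddx60 (-1.83), Ifgga2l1 (-1.36), Hsd17b7 (-1.05), Vldlr (-0.81), Eef2k (-1.53), Grb10 (-0.71), Ndufb9 (-0.25), Ctsa (-0.55), Hexa (-0.51), Slc26a4 (-1.09), Atp6v1g3 (-0.68), Slc12a3 (-1.68) and Col1a1 (-1.36). It was higher for Xbp1 (0.54), Eif4ebp2 (0.75), Aqp1 (0.32), Glyatl2 (1.71), Kcnj1 (1.19), Actn4 (0.42), Dusp6 (1.23), Adam9 (2.71), Vdr (2.10), Ap1s1 (1.67) and Tsn (2.24). Against day 14, the effect at day 7 was lower for Kif20a (-1.55), Pcna (-0.41), Tap1 (-1.95), Ddx60 (-2.01), Hsd17b7 (-1.06), Fnip1 (-0.73), Eef2k (-2.31), Grb10 (-0.68) and Slc12a3 (-0.99). It was higher for Eif4ebp2 (0.66), Adam9 (1.66), Vdr (1.12), Ap1s1 (1.04) and Tsn (0.95). Against day 28, the effect at day 7 was lower for Racgap1 (-1.04), Rrm1 (-0.65), Pcna (-0.37), Tap1 (-1.37) and Ifgga2l1 (-1.31). It was higher for Aqp1 (0.28), Actn4 (0.40), Dusp6 (1.13), Adam9 (1.38), Vdr (1.28), Ap1s1 (1.09) and Tsn (0.80).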

How the results depend on the processing

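The count of 778 genes called between Rapa 10 mg/kg and vehicle at day 7 was 1271 over all probe sets, 502 with the Gapdh ratio as a covariate and 65 with the 8 arrays fitted alone, which leaves few rats to estimate the spread. It ranged from 447 (without Rapa 10 mg/kg rat 2) to 703 when rats were left out in turn. It stayed within 1.5 times of 778 under the other alternatives, among them 852 on unnormalized intensities, 774 after adding 1 in place of 16, 674 with dim genes kept, and 640 with the actin ratio as a covariate, which was added after seeing the data. When the 8 arrays were fitted alone, 7 cell cycle and 5 interferon genes were called lower. In that fit 0 genes of the cholesterol, fatty acid oxidation, matrix, respiratory chain and macrophage lists were called lower. There 0 ribosomal genes were called higher. Between the Rapa doses 4 genes were called over all probe sets, 2 with the day 7 arrays alone and 0 to 3 when rats were left out in turn. Leaving out rats gave 400 to 647 genes against FK506 and 646 to 909 against CsA, the lowest without Rapa 10 mg/kg rat 2 in both.

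The difference of effects between days 7 and 1 was called for 1314 over all probe sets, 8 with the Gapdh ratio and 160 with the actin ratio as a covariate. Between days 7 and 14 these counts were 666, 47 and 81, with 105 (without Rapa 10 mg/kg rat 3 of day 14) to 338 (without vehicle rat 1 of day 7) when rats were left out. Between days 7 and 28 the count was 286 over all probe sets, 115 without the filter on dim genes and 96 with those days fitted alone, and 73 (without vehicle rat 2 of day 7) to 313 (without vehicle rat 1 of day 7) when rats were left out. The difference in the log2 Gapdh ratio ranged from -0.42 to -0.33 when rats were left out.

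Of 125 genes named, 102 were called, and 17 of these kept their direction and call under every alternative. The sign turned against vehicle of days 1 and 14 for Cpt1a (0.057) and Kcnj1 (-0.17). The causes of these shifts were not tested. No paired analysis was possible because each rat has a number of its own and the groups share none. The file gives no detection calls. The filter removed genes by their mean over all arrays, and tested genes such as Top2a and Mki67 still had levels near the floor in Rapa rats.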
